A study of Mus musculus with 16 samples.

Results

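The 8 genes described here code for sestrins (Sesn1, Sesn2, Sesn3), CASTOR proteins (Castor1, Castor2) and other inhibitors of the kinase complex mTORC1 (Ddit4, Ddit4l, Deptor). They were chosen by name, with earlier results of these data known, and all 8 had a row in the deposited table, among 19938 genes measured. The cells were N25/2, an immortalized line from embryonic mouse hypothalamus, kept in medium with amino acids (control) or lacking amino acids (deprived) for 1, 2, 3, 5 or 16 h. All samples came from this single line, grown before treatment in DMEM with fetal bovine serum and antibiotics, and each was run on 1 whole-transcript array. There were 4 control and 4 deprived samples at 5 h and 1 of each at 1, 2, 3 and 16 h, so only the 5 h groups had replicates.

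mTORC1 drives protein synthesis and growth when amino acids are at hand, and it is switched on at the lysosome by Rag GTPases. Sestrins and CASTORs bind the GATOR2 complex when leucine or arginine is scarce, which leaves GATOR1 free to turn the Rag GTPases off. Ddit4 and Ddit4l (also called REDD1 and REDD2) act through the TSC complex, which turns off the mTORC1 activator Rheb, and Deptor is a subunit that binds mTOR itself. Transcription of their genes is one level at which these proteins are regulated, and an array measures only the RNA.

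Values are levels on the log2 scale after robust multi-array averaging (RMA), and a difference is deprived minus control on that scale. Tests were made with limma over all 19938 genes, with Benjamini-Hochberg adjustment and a threshold of 0.05, and SE is the standard error of that fit. Whether the samples of a group came from separate cultures is not stated, so each p-value reflects only the scatter among these arrays, part or all of which could be technical. Both 5 h samples numbered 4 stood apart from the others. Same-numbered samples deviated together, mainly through number 4, so values with the sample number as a block, and without both samples numbered 4, are given where they change a call. Of 8 neural progenitor genes 3 (Pax6, Msi1 and Fabp7) lay below the level of the median gene (7.47), while Sox2 was at 10.69, Nes at 10.34 and Vim at 13.70. Of 10 mesenchymal genes 2 (Lum and Thy1) lay below it, while Col1a1 was at 12.03 and Postn at 12.66. Of 10 neuronal genes 8 lay below it, though Stmn2 was at 12.25, as did 9 of 12 genes of hypothalamic peptides and regulators. In the 7 marker lists, the 5 h test called only 1 gene, a neural progenitor gene that was lower, where 1.70 percent of all genes were lower. With the block, 3 of 10 mesenchymal genes and 1 of 7 genes of microglia and blood cells were also lower, where 10.0 percent of all genes were. The summed level of the mesenchymal list was 92.4 to 95.3 in control and 91.7 to 92.7 in deprived samples at 5 h, that of the 8 progenitor genes 71.5 to 73.9 and 70.7 to 72.9, and their part in the results below was not tested.

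The promoters of the 3 genes called at 5 h, and of Ddit4, are shown because 5 elements of stress-regulated transcription were searched in them. Sequences are from RefSeq (GRCm38.p6), 250 bases before to 50 bases after a start, on the gene's strand, with motif matches in capitals. The Sesn2 window is chr4:132510407-132510706 on the minus strand, that of Castor2 is chr5:134099498-134099797 on the plus strand, the upstream window of Sesn1 is chr10:41810324-41810623 on the plus strand, and that of Ddit4 is chr10:59951721-59952020 on the minus strand.
Sesn2: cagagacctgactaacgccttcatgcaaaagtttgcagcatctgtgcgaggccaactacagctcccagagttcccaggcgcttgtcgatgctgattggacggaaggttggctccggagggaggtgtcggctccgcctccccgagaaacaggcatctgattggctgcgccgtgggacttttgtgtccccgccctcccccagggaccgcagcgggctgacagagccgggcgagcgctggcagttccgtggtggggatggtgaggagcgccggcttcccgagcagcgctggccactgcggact
Castor2: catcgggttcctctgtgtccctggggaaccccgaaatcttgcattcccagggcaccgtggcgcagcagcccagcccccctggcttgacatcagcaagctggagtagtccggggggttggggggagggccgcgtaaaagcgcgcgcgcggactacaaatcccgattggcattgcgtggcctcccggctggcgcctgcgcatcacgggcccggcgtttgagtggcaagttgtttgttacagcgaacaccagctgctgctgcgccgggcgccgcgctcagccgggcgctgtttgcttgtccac
Sesn1: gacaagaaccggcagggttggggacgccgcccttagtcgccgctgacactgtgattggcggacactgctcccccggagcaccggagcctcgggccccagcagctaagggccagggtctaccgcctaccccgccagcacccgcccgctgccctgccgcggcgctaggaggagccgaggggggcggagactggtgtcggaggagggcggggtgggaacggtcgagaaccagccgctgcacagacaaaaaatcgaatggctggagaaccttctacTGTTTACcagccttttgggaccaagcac
Ddit4: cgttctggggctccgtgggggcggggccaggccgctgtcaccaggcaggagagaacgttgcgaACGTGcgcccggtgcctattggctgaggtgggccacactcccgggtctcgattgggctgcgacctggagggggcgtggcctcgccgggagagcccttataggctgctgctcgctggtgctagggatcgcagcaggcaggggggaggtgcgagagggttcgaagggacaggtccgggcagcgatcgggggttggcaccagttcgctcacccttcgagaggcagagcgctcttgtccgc
The motifs were searched on both strands. They were the ATF4 composite element TGATGNAA (in 3.97 percent of all 32851 windows of this length), the E-box CACGTG (7.15 percent), the hypoxia element core ACGTG (19.6 percent), the FOXO element TGTTTAC (3.65 percent) and the glucocorticoid receptor core element AGAACA (19 percent). The hypoxia core overlaps the E-box. Of the 8 windows of 7 members (Sesn1 has 2), the Sesn2 and Castor2 windows held none of the 5 motifs. The upstream Sesn1 window held a FOXO element at 23 bases after the start, and the Ddit4 window held the hypoxia core at -187. The Castor1 window, not printed, held the hypoxia core at -221.

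The first question was which of these inhibitors differed after 5 h without amino acids. Sesn2 rose 3.61-fold, Castor2 fell 2.03-fold and Sesn1 fell 1.66-fold, and the other 5 genes did not pass the test. Of the 8 genes, 1 rose and 2 fell, against 2.41 percent of all genes that rose and 1.70 percent that fell (4.11 percent in either direction). The median difference was -0.42 over the 8 genes and -0.01 over all genes. With the sample number as a block all 8 passed, 3 higher and 5 lower, where 18.2 percent of all genes passed (8.22 percent higher and 10.0 percent lower). Without both samples numbered 4 the counts were again 3 and 5, where 13.5 percent of all genes passed (6.34 percent higher and 7.17 percent lower). Control and deprived levels did not overlap for 4 of the 8 (Sesn1, Sesn2, Castor2 and Ddit4l), against 10.5 percent of all genes (5.15 percent higher and 5.38 percent lower).

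**Figure D1:**
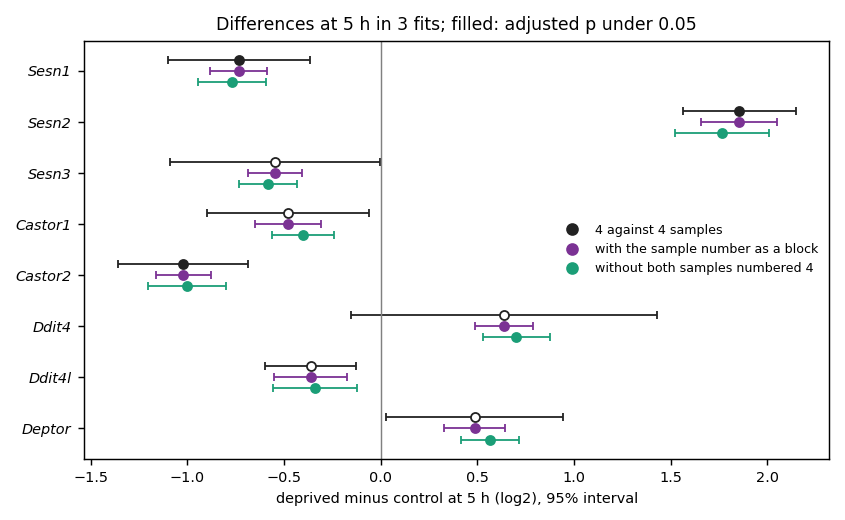
Difference between deprived and control samples at 5 h (x axis, log2) for each gene (y axis), with the 95% interval of limma's fit in 3 fits. Filled points passed an adjusted p of 0.05: Sesn1, Sesn2 and Castor2 in the fit of 4 against 4 samples, all 8 genes in the other fits. Ddit4 has the widest interval, from -0.15 to 1.43, which narrows to 0.49 to 0.79 with the block.

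The sestrins did not move together. Sesn2, which binds leucine and GATOR2, was at 8.83, 8.34, 8.49 and 8.17 in the control samples of 5 h (numbers 1 to 4) and at 10.37, 10.35, 10.25 and 10.28 in the deprived samples. The lowest deprived sample was far above the highest control sample, and the control samples spread more (SD 0.28) than the deprived ones (SD 0.06). The difference was 1.85 (SE 0.13, n = 4 per group, adjusted p = 0.000133 in limma). Only 8 of all 19938 genes, Sesn2 among them, had a difference that high at 5 h.

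Sesn1, the sestrin first known as a p53 target, went the other way. Its levels were 9.75, 9.62, 9.67 and 10.12 in control and 8.88, 8.80, 9.05 and 9.50 in deprived samples. The lowest control value lay only just above the highest deprived value, which came from number 4, as did the highest control value. Sesn1 fell by 0.73 (SE 0.16, adjusted p = 0.0377 in limma), close to the threshold. It kept this call without either sample numbered 4 but lost it when any of the other 6 samples was left out (adjusted p up to 0.132) and when arrays were centred on their medians (adjusted p = 0.0585). With the block the adjusted p was 3.18e-05 and without both samples numbered 4 it was 0.000107. As in any bulk sample, less RNA per cell and fewer cells of a kind cannot be told apart.

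Sesn3, a sestrin known as a FOXO target, was at 9.90, 9.86, 9.81 and 10.62 in control and 9.33, 9.20, 9.30 and 10.18 in deprived samples. Number 4 was the highest by far in both groups, so the groups overlapped, while all 4 same-numbered pairs were lower in deprived cells (by 0.44 to 0.66). The difference of -0.55 (SE 0.24, 95% interval -1.09 to -0.0039) did not pass in limma (adjusted p = 0.358). It passed with the block (adjusted p = 0.000153) and without both samples numbered 4 (difference -0.58, adjusted p = 0.000274), and narrowly without deprived sample 4 alone (difference -0.77, adjusted p = 0.0447). Without control sample 4 alone the difference was -0.36 (adjusted p = 0.464), and no other single omission passed.

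Castor2 and Castor1 code for paired GATOR2-binding proteins, of which Castor1 binds arginine. Castor2 was at 10.00, 9.98, 10.19 and 10.53 in control and 9.14, 8.88, 9.15 and 9.45 in deprived samples, with no overlap. It fell by 1.02 (SE 0.15, adjusted p = 0.00508 in limma), and 10 of all genes, Castor2 among them, had a difference that low at 5 h. The call held in each of the 16 alternative settings, though the setting with all 16 samples could not differ from the main fit. A second, dimmer row of the table for Castor2 was at 8.10 (SD 0.33, n = 4) and 7.38 (SD 0.21, n = 4), a difference of -0.71.

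Castor1 was at 7.40, 7.44, 7.56 and 8.22 in control and 7.13, 7.08, 6.98 and 7.51 in deprived samples. Its mean over all arrays, 7.44, is close to the level of the median gene, so the signal is modest, and number 4 was again the highest of each group. The difference of -0.48 (SE 0.19) did not pass in limma (adjusted p = 0.266). It passed with the block (adjusted p = 0.00149) and without both samples numbered 4 (difference -0.40, adjusted p = 0.00399). The difference was -0.29 without control sample 4.

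Of the other inhibitors, Ddit4, an mTORC1 inhibitor induced by many stresses, had the widest spread. It was at 8.92, 8.73, 8.70 and 10.14 in control and 9.56, 9.45, 9.44 and 10.59 in deprived samples. Each of the 4 pairs was higher in deprived cells, by 0.45 to 0.74, but control sample 4 lay above 3 of the 4 deprived samples. The difference of 0.64 (SE 0.35) therefore did not pass without the block (adjusted p = 0.538 in limma) and did with it (adjusted p = 8.79e-05), as it did without both samples numbered 4 (difference 0.70, adjusted p = 0.000185). Single samples moved the value too: it was 0.36 without deprived sample 4 and 0.98 without control sample 4.

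Ddit4l, a dim relative of Ddit4, was at 7.18, 6.88, 7.14 and 7.27 in control and 6.56, 6.84, 6.78 and 6.85 in deprived samples. The groups touched without overlapping, at 6.88 and 6.85, and pair 2 differed by only -0.04. The difference of -0.36 (SE 0.10) did not pass in limma (adjusted p = 0.108). It passed with the block (adjusted p = 0.0124) and without both samples numbered 4 (difference -0.34, adjusted p = 0.0424).

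Deptor was at 9.88, 9.80, 9.86 and 9.33 in control and 10.49, 10.35, 10.40 and 9.58 in deprived samples. Here number 4 was the lowest of both groups, and deprived sample 4 lay below 3 of the 4 control samples. All pairs were higher in deprived cells, by 0.25 to 0.61. The difference of 0.49 (SE 0.20) did not pass in limma (adjusted p = 0.316). It passed with the block (adjusted p = 0.000747) and without both samples numbered 4 (difference 0.57, adjusted p = 0.000307). Of the 8 single omissions only that of deprived sample 4 passed (difference 0.70, adjusted p = 0.0193), and without control sample 4 the difference was 0.36 (adjusted p = 0.417).

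**Figure D2:**
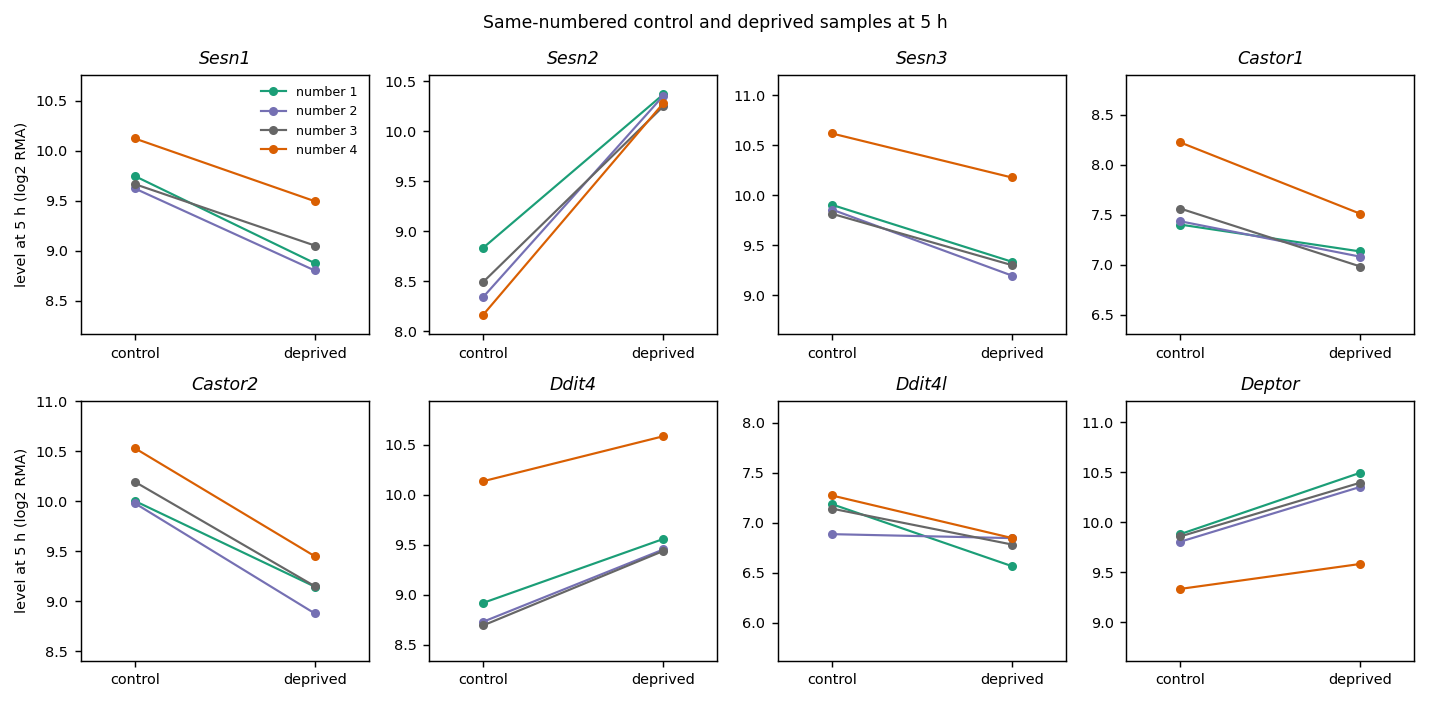
Levels (y axis, log2 RMA) of each gene in the 4 control and 4 deprived samples at 5 h (x axis), with a line joining samples of the same number. The lines of number 4 run apart from the others for Sesn3, Ddit4 and Deptor, at 10.62 and 10.18, 10.14 and 10.59, and 9.33 and 9.58, yet slope the same way as the other pairs.

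The next question was how the differences ran over time. At 1, 2, 3 and 16 h there was 1 sample per group, so these are differences between 2 arrays with no replicate check. The pooled SD within the 5 h groups serves as a rough yardstick. It is the spread of single arrays, and a difference between 2 unrelated arrays scatters more. Same-numbered pairs at 5 h scattered less for Ddit4 (0.45 to 0.74, SD 0.62) but more for Ddit4l (-0.62 to -0.04, SD 0.15). Whether the 2 arrays of another time are related is not stated. A difference only somewhat larger than the 5 h SD is therefore not set apart from scatter. An absolute difference of at least 0.5, a size set for description, was reached by 2 of the 8 genes at 1 h, 1 higher (0.226 percent of all genes) and 1 lower (0.557 percent), 0.782 percent of all genes in either direction. It was reached by 1 of the 8 at 2 h, higher (0.787 percent, against 0.978 percent lower and 1.77 percent in all). At 3 h it was reached by 2 of the 8, both higher (0.843 percent, against 1.10 percent lower and 1.94 percent in all). At 16 h all 8 reached it, 2 higher (9.36 percent) and 6 lower (8.99 percent), as did 18.3 percent of all genes.

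Sesn2 was already higher at 1 h, at 9.24 in control and 10.01 in deprived cells, a difference of 0.77 that 7 of all genes reached. The levels were 8.99 and 10.32 at 2 h, 9.07 and 10.67 at 3 h, and 8.49 and 10.31 at 16 h. All 5 deprived conditions lay above all 5 control conditions. Within the deprived cells, 2, 5 and 16 h differed by less than the 5 h SD of 0.20, and 3 h was the highest. The difference went from 1.33 at 2 h and 1.60 at 3 h to 1.85 at 5 h and 1.83 at 16 h, while the control level was 9.24 at 1 h and 8.46 (SD 0.28, n = 4) at 5 h. At 3 h only 3 genes had a difference as high.

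Sesn1 and Sesn3 showed no difference at 1 and 2 h beyond their 5 h SDs (0.27 and 0.42). Sesn1 was at 9.38 and 9.39 at 1 h and 9.12 and 9.18 at 2 h, and Sesn3 at 9.05 and 9.23 and then 9.33 and 9.27. At 3 h they were lower in deprived cells by 0.40 and 0.45, the latter little above its SD. At 16 h Sesn1 was at 10.03 in control and 8.34 in deprived cells, and Sesn3 at 10.70 and 8.66, differences of -1.68 and -2.04. By condition means, which cover 4 arrays at 5 h and 1 at 16 h, deprived at 16 h was the lowest and control at 16 h the highest for both genes. Among single arrays, control sample 4 of 5 h was higher still for Sesn1, at 10.12.

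Castor2 was at 9.71 and 9.99 at 1 h, 9.55 and 9.53 at 2 h, 9.84 and 9.46 at 3 h and 9.85 and 8.50 at 16 h. Its differences in order of time, with the 5 h mean, were 0.28, -0.02, -0.39, -1.02 and -1.34. The sign at 1 h is not settled, since the second row gave -0.21 there, whereas at 16 h it gave -1.41. Castor1 was at 7.35 and 7.28 at 1 h, 7.61 and 7.36 at 2 h, 7.44 and 7.32 at 3 h and 7.95 and 7.41 at 16 h. All of its single-time differences up to 3 h were smaller than its 5 h SD of 0.32.

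The measured difference of Ddit4 changed sign over the course, on single arrays outside 5 h. It was at 10.14 in control and 9.20 in deprived cells at 1 h, 9.57 and 9.73 at 2 h, 9.06 and 9.94 at 3 h, and 9.64 and 9.03 at 16 h. The differences were -0.94, 0.16, 0.88 and -0.61, against a 5 h SD of 0.62 for single arrays. Those of 1 and 3 h were larger than that SD and the others were not. By that yardstick the excess is too small to set them apart from the scatter of a difference between 2 unrelated arrays. The samples numbered 4 widened this SD, since the others at 5 h ran from 8.70 to 8.92 in control and 9.44 to 9.56 in deprived cells. By condition means, deprived at 16 h was the lowest and control at 1 h the highest. Among single arrays, control samples 1 to 3 of 5 h were lower (8.92, 8.73 and 8.70), and deprived sample 4 of 5 h was the highest (10.59). Only 26 genes were as low at 1 h and 24 as high at 3 h. On these single arrays, control levels went down from 1 to 3 h while deprived levels went up.

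Ddit4l was at 7.03 and 6.96 at 1 h, 6.89 and 6.76 at 2 h, 6.90 and 6.86 at 3 h, and 7.04 and 6.49 at 16 h. Only the 16 h difference of -0.55 exceeded its 5 h SD of 0.15. Deptor was at 9.97 and 9.66 at 1 h, 9.99 and 10.09 at 2 h, 9.87 and 9.94 at 3 h, and 9.22 and 9.87 at 16 h. Its difference of 0.64 at 16 h exceeded the 5 h SD of 0.35, and control at 16 h was its lowest condition.

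**Figure D3:**
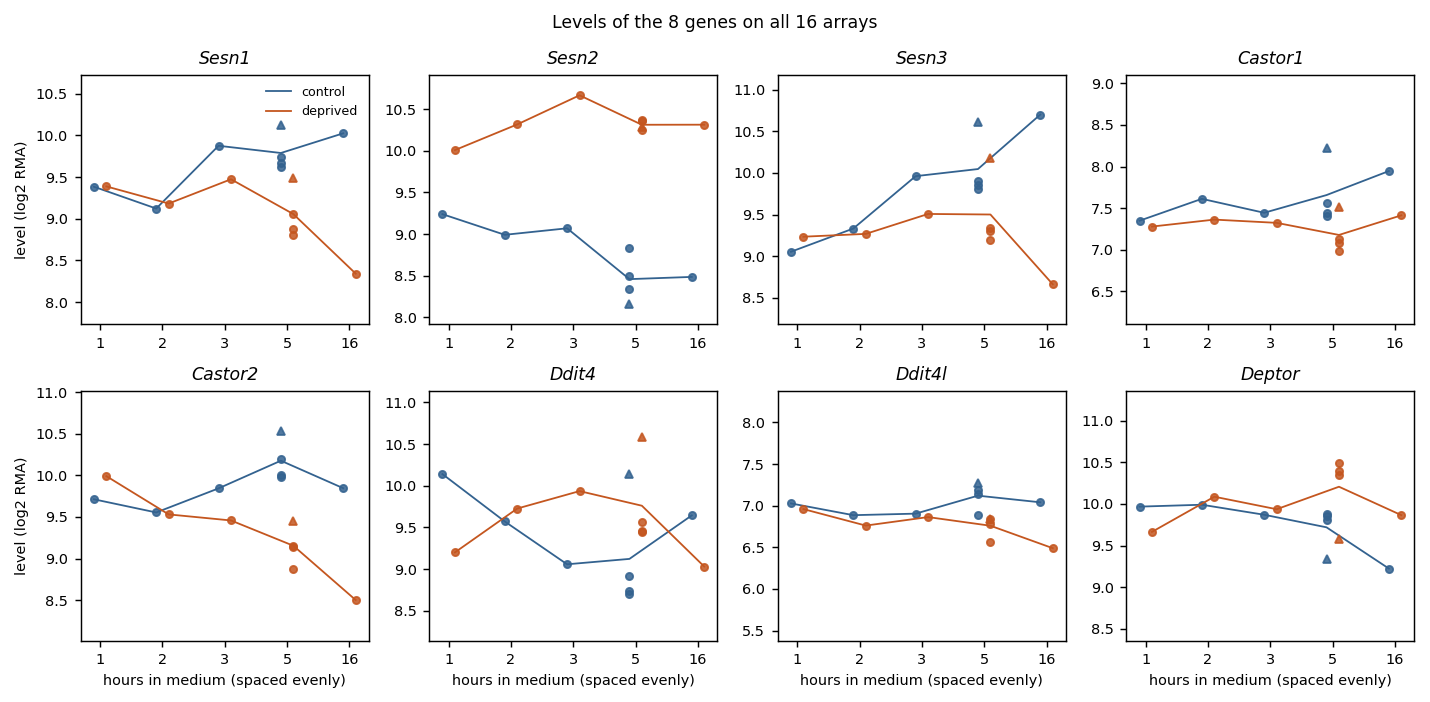
Level (y axis, log2 RMA; every panel spans the same number of units) of each gene on all 16 arrays by hours in medium (x axis, evenly spaced), with lines through the group means and triangles for the 5 h samples numbered 4. Sesn2 is apart in the arms from 1 h on (9.24 and 10.01), whereas Sesn1, Sesn3 and Castor2 part after 2 h and Ddit4 crosses between 1 and 3 h.

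The slope of the difference over log2 hours was tested across all 16 samples, with time as a factor. It passed for 2 of the 8 genes, both downward, where 2.47 percent of all genes passed (1.39 percent upward and 1.07 percent downward). The slope was -0.45 per doubling of time for Sesn1 (SE 0.10, adjusted p = 0.0312 in limma) and -0.47 for Castor2 (SE 0.09, adjusted p = 0.0228). Without the 16 h samples these adjusted p-values were 0.513 and 0.0906, with slopes of -0.37 and -0.60. The slope was -0.52 (SE 0.15, adjusted p = 0.0823) for Sesn3, 0.28 (SE 0.09, adjusted p = 0.114) for Sesn2 and 0.25 (SE 0.12, adjusted p = 0.350) for Deptor. These 3 passed with each same-numbered pair as a block (adjusted p = 0.00157, 0.0267 and 0.00899), which made 2 of the 8 upward and 3 downward, where 11.6 percent of all genes passed (5.92 percent upward and 5.68 percent downward). Without 16 h and without the block, the slope was -0.32 for Sesn3 (adjusted p = 1.00), 0.45 for Sesn2 (adjusted p = 0.134) and 0.34 for Deptor (adjusted p = 0.857). The slopes of Castor1 (-0.13, SE 0.11), Ddit4l (-0.14, SE 0.06) and Ddit4 (0.10, SE 0.25, and 0.60 without 16 h) passed in neither fit. A straight slope cannot describe a difference that changes sign more than once. The measured values of Ddit4 did so, but outside 5 h they come from single arrays.

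Within the arms, the deprived cells were tested over log2 hours alone. Castor2 fell by 0.36 per doubling (SE 0.05, adjusted p = 0.00501 in limma), the 1 member of 8 that passed, against 8.22 percent of all genes (4.26 percent upward and 3.96 percent downward). Sesn1 had a slope of -0.25 (SE 0.08, adjusted p = 0.0763). It passed without deprived sample 4 (adjusted p = 0.0123), while without 16 h it was -0.14 (adjusted p = 0.578). In control cells none of the 8 passed in limma, and 7 of all genes did (0.0351 percent, of which 0.00502 upward and 0.0301 downward). At an unadjusted p under 0.05 there were 4 of the 8 and 1624 of all genes. The largest control slope among the 8 was that of Sesn3, 0.42 per doubling (SE 0.08, adjusted p = 0.142), which passed without control sample 4 (slope 0.40, adjusted p = 0.00533), where 220 of all genes passed. Sesn2 in control cells had a slope of -0.24 (SE 0.08, adjusted p = 0.419), which was -0.36 without 16 h (adjusted p = 0.258). For the deprived arm the slope of Sesn2 was 0.05 (SE 0.05, 95% interval -0.07 to 0.17), and 0.10 without 16 h (adjusted p = 0.636).

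The mean difference over 1, 2, 3 and 16 h, samples that the 5 h test did not use, was 1.38 for Sesn2 (SE 0.17), higher at all 4 times, with an unadjusted p = 0.000163 and an adjusted p = 0.466 in limma. The SE in this fit comes from how the difference varies between the 4 times, so a difference that changes with time has a larger SE. No gene of the 19938 passed (0 percent) in this fit. An unadjusted p under 0.05 in limma was found for 1244 genes (6.24 percent), among them Sesn2 and Castor1. The mean was -0.24 (SE 0.09) for Castor1, lower at all 4 times. Without 16 h, 35 genes passed and Sesn2 was one of them (1.23, adjusted p = 0.0227). For Sesn1, Sesn3 and Castor2 the means were -0.51 (SE 0.29), -0.59 (SE 0.35) and -0.37 (SE 0.25), and for Ddit4, Ddit4l and Deptor -0.13 (SE 0.29), -0.20 (SE 0.10) and 0.13 (SE 0.15). Without 16 h the mean was -0.11 for Sesn1, -0.11 for Sesn3, -0.04 for Castor2, -0.15 for Castor1 and -0.08 for Ddit4l, and the sign turned for Ddit4 (0.03) and Deptor (-0.05).

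The other genes of the mTORC1 pathway were counted from lists chosen with earlier results of these data known. The counts stand beside 4.11 percent of all genes called (2.41 higher and 1.70 lower). Counts with the block stand beside 18.2 percent of all genes (8.22 higher and 10.0 lower). Of 8 amino acid sensor genes 2 rose and 2 fell (2 higher and 4 lower with the block). Those called without the block were Sesn2, Castor2 and Sesn1 of the genes above and Lars. Lars, the leucyl-tRNA synthetase gene, rose by 0.77 (SE 0.17, adjusted p = 0.0338 in limma). None of 10 GATOR1, GATOR2 and KICSTOR genes passed (1 higher and 1 lower with the block), so the complexes that sestrins and CASTORs act on had no called gene in that fit. Of 12 genes of Rag GTPases, Ragulator and folliculin 5 rose and none fell (6 higher and 1 lower with the block). Of these, the Rag GTPase gene Rragc rose by 0.64 (SE 0.11), the folliculin gene Flcn by 0.68 (SE 0.10) and Fnip1, which codes for a folliculin partner, by 0.83 (SE 0.08).

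None of 5 genes of the TSC complex and Rheb, through which Ddit4 acts, passed without the block, while 3 were higher and 1 lower with it. Of 11 mTOR complex subunit genes Akt1s1 alone passed without the block (3 higher and 0 lower with it). Akt1s1 codes for PRAS40, an inhibitory subunit of mTORC1 like Deptor, and rose by 0.74 (SE 0.12, adjusted p = 0.00857 in limma). Its difference was 0.18, 0.29, 0.56 and 0.49 at 1, 2, 3 and 16 h. Of 8 substrate genes Eif4ebp1, a repressor of cap-dependent translation, rose by 0.95 (SE 0.16). With the block 1 substrate gene was higher and 1 lower. Of 10 genes of AMPK and its activator Lkb1, Prkaa2 rose by 0.40 (SE 0.09) and Prkag2 fell by 0.42 (SE 0.08). With the block 2 of these 10 were higher and 3 lower.

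Genes regulated by the factors known to act on sestrins and Ddit4 were counted the same way. Their lists too were chosen with earlier results of these data known, so the counts are descriptions. All 22 measured genes of an Atf4 target list (Sesn2 not included) rose at 5 h. The largest differences were those of the cystine transporter gene Slc7a11 (3.21, SE 0.32), the pseudokinase gene Trib3 (2.52, SE 0.12) and Cth, which codes for a cysteine-producing enzyme (2.23, SE 0.15). In order of time, the median differences of that list were 0.05, 0.41, 0.82, 1.40 and 1.62, and those of Sesn2 were 0.77, 1.33, 1.60, 1.85 and 1.83. Sesn2 thus lay above the list's median at each time, and by least at 16 h. Of 16 p53 target genes 3 rose and 2 fell (4 higher and 5 lower with the block), with a median of 0.03, beside the fall of Sesn1. Those that rose were Gadd45a (1.72, SE 0.15), Eda2r (1.18, SE 0.11) and Trp53inp1 (0.93, SE 0.07). None of 17 FOXO target genes passed, 6 higher and 1 lower with the block, beside the difference of -0.55 for Sesn3.

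Of 11 glucocorticoid receptor targets Tsc22d3 rose by 1.08 (SE 0.14) and Klf9 by 0.82 (SE 0.11), and none fell. With the block 2 were higher and 2 lower, and the list's median at 5 h was -0.07. Of 16 hypoxia targets 3 rose and 1 fell (4 higher and 1 lower with the block), beside the difference of 0.64 for Ddit4. Ero1a rose by 1.56 (SE 0.27) and Vegfa by 1.32 (SE 0.10), and Slc2a1 fell by 0.69 (SE 0.12). At 16 h the median of the hypoxia list was -0.54, and Ddit4 was at -0.61. At 1 h, where Ddit4 was at -0.94, the hypoxia list had a median of 0.04 and the glucocorticoid list one of -0.16.

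For each of the 3 genes that passed at 5 h, the genes with the most similar course were found. The measure was the root mean square distance between their 5 differences (1, 2, 3, 5 and 16 h, each from the arrays of that time). Since the 5 h difference was part of that distance, similar 5 h differences in these genes follow from the choice. Nearest to Sesn2 were Chac1, a glutathione-degrading enzyme (distance 0.24), Gadd45a, a growth arrest gene (0.26), and Tmem74 (0.40). Chac1 differed by 0.74 at 1 h, as early as Sesn2, and by 2.12 at 5 h. Castor2 was followed most closely by Sync (distance 0.07), Tgfb1i1 (0.13) and Mov10 (0.16). Sync differed by -1.06 and Tgfb1i1 by -0.99 at 5 h, both past the threshold, while Mov10 was not (adjusted p = 0.0751 in limma). Sesn1 had as nearest genes Hmgcs1, a cholesterol synthesis enzyme (distance 0.08), Arsj (0.12) and Cyb5a (0.13), of which only Cyb5a passed at 5 h (-0.63, SE 0.12). Hmgcs1 spread more than Sesn1 between the 5 h controls, from 9.00 to 10.92.

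**Figure D4:**
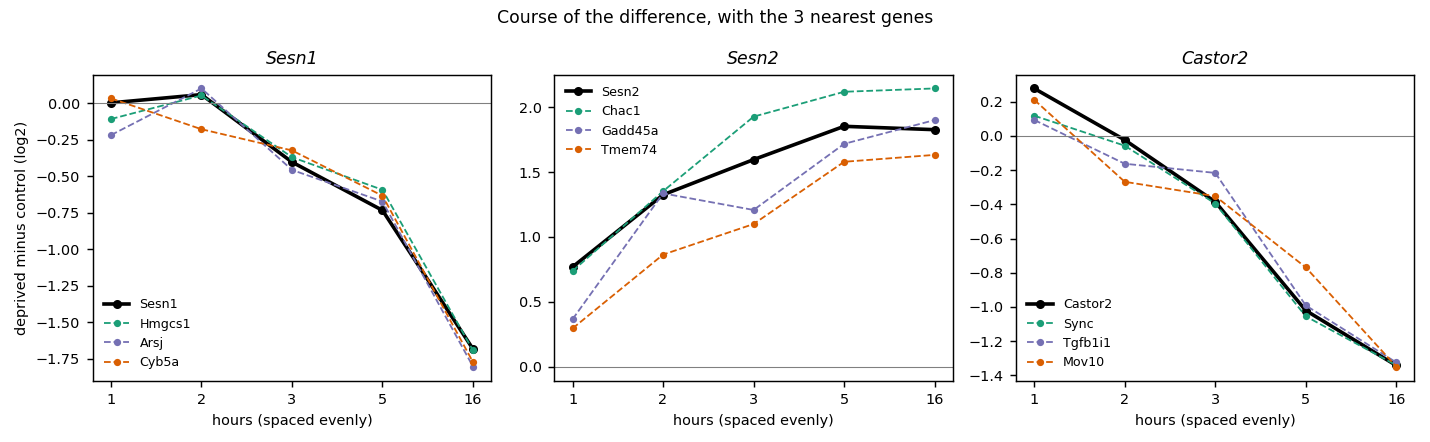
Deprived minus control (y axis, log2; the scale differs between panels) over time (x axis, hours, evenly spaced) for Sesn1, Sesn2 and Castor2 (black) and the 3 genes nearest to each (dashed). Points are 1 array against 1 array except at 5 h, where they are means of 4. Sesn2 is at 0.77 at 1 h, while Sesn1 and Castor2 are at -0.40 and -0.39 at 3 h and at -1.68 and -1.34 at 16 h.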

How the data were processed

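Total RNA from 16 samples was amplified, labelled with biotin and measured on 1 Affymetrix array each (labels' protocols). Values were deposited by the authors on the log2 scale. RMA and limma are named in the submitters' processing notes, while versions and settings are not given in the sources used here. The table has 35556 rows with medians of 7.02 to 7.12 per array. Precision is limited by how many arrays there are. Rows were named through the platform annotation (21789 with 1 symbol, 1621 with several, 12146 unnamed here), symbols were updated by Entrez identifier (21698 matched), and the row with the highest mean stood for a gene, which left 19938 genes. RMA values were used with no further normalization.

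Tests used limma 3.58.1 in R 4.3.3 (lmFit, eBayes, two-sided, Benjamini-Hochberg over all genes): 4 against 4 samples at 5 h; the treatment term over 1, 2, 3 and 16 h with time as a factor; the treatment by log2 hours term over all 16 samples; and slopes on log2 hours within each arm. Scripts were tested on simulated data. Data handling used Python 3.11.15 with pandas 2.3.3.

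The 5 h numbers 1 to 4 occur in both groups without a stated reason. Deviations from the group means correlated between same-numbered samples with 0.354, 0.584, 0.467 and 0.896. These samples were treated as pairs in the block fits only, and the main 5 h test was unpaired. Number 4 carries most of the correlation, so a pairing of numbers 1 to 3 is not established. Differently numbered samples among 1 to 3 correlated with 0.133 to 0.680, control 3 more with deprived 2 (0.680) than with its own number, and with number 4 left out the same-numbered correlations were 0.193, -0.003 and -0.200.

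The members, lists, motifs and the rule for named genes were chosen with earlier results of these data known. That rule took the 8 members, up to 3 genes past the 5 h threshold with the largest difference from each pathway list, and the 3 genes nearest in course to each member past the threshold. Alternatives were array centring, quantile normalization, genes above the median level, the mean of a gene's rows, a trended robust prior, the pair block, all 16 samples in the fit, and samples or times left out. RefSeq promoters (GRCm38.p6) matched 7 of the 8 members.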

Additional observations from a re-analysis of the deposited data

Results flagged for a closer look

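Number 4 stood far from the other 3 samples of its 5 h group for 3 genes, in both groups each time. This made 6 of the 16 groups checked. Chance flags about 1 in 20 independent checks, but these checks share the same arrays. The deviations of the 5 h samples numbered 4 correlated with 0.896, so that rate does not apply here. The share of all genes flagged was not counted, so the 6 flags are not a result about these genes. For Sesn3 number 4 was at 10.62 against 9.81 to 9.90 in control cells and at 10.18 against 9.20 to 9.33 in deprived cells. For Ddit4 it was at 10.14 against 8.70 to 8.92 in control and at 10.59 against 9.44 to 9.56 in deprived cells. For Deptor it was the lowest, at 9.33 against 9.80 to 9.88 in control and at 9.58 against 10.35 to 10.49 in deprived cells.

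The difference between deprived and control cells itself differed between times for Sesn1, with a slope of -0.45 per doubling of hours, and for Castor2, with a slope of -0.47, both past the threshold of limma's test of that slope.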

How the results depend on the processing

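Sesn2 and Castor2 kept their 5 h calls in all 16 alternatives, with differences of 1.76 to 1.98 and -1.12 to -0.87. Sesn1 kept its call in 9 of 16. The alternative with all 16 samples in the fit could not differ from the main 5 h test, since single arrays add no scatter. For Sesn1 and Sesn2, which have a single row each, the mean of a gene's rows left their values unchanged. The 820 calls at 5 h became 3632 with the replicate block, 2695 without both samples numbered 4, and 382 to 1066 with 1 sample left out. The 492 trend calls became 829 after quantile normalization, 2313 with the replicate block, 2456 without both samples numbered 4, 34 without 16 h, and 318 to 823 with 1 sample of 5 h left out. For the mean over single times, 35 genes passed in place of 0 without 16 h. Control slopes passed for 23 genes without 16 h and for 1 to 220 with 1 sample left out, in place of 7. Deprived slopes passed for 621 without 16 h and for 1137 to 2829, in place of 1639. The cause of these changes was not tested.

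Tested values that reversed, none past the threshold, were these: the mean of Ddit4 was 0.14 without 1 h and 0.0312 without 16 h, and that of Deptor -0.0467 without 16 h. In deprived cells without 16 h the slopes were 0.12 for Sesn3, -0.0638 for Castor1 and 0.19 for Ddit4, and Castor1 ran from -0.00646 to 0.0151 with 1 sample left out. Differences near 0 at single times also turned sign: Sesn1 at 1 h from 0.0038 to -0.0068 with centring, and Castor2 at 2 h from -0.023 to 0.00031 with centring and 0.032 with the mean of its rows. Centring and quantile normalization moved the median gene by at most 0.088. Castor1 and Ddit4l, at or below the median level, have no value among genes above it, and single-array times have no replicate error.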

Other observations

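Of the 8 genes, 5 had the control sample numbered 4 at 5 h as the 5 h control nearest to the control sample of 16 h. Sesn3 was at 10.62 in it and at 10.70 at 16 h, Deptor at 9.33 and 9.22, Sesn1 at 10.12 and 10.03, Castor1 at 8.22 and 7.95, and Ddit4 at 10.14 and 9.64. For the other 3 it was not the nearest: Sesn2 was at 8.17 and 8.49, Castor2 at 10.53 and 9.85, and Ddit4l at 7.27 and 7.04. These are values of single arrays and were not tested. The share of all genes with number 4 nearest was not counted, so 5 of 8 is not a result about these genes.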
